A study of Mus musculus with 18 samples.

Results

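The regions described here carry the histone mark H3K9me3 in mouse embryonic stem cells that have lost TRIM28 and are missing from the matching wild-type list. They are the 18884 of 37221 regions of the knockout list (50.7%) that share no base with any of the 37002 regions of the wild-type list. Both lists come from ES3 cells, C57BL/6 mouse embryonic stem cells grown on gelatin with serum and LIF. Knockout cells were Trim28 (KAP1) deleted and were taken 4 days after a CRE recombinase was switched on with 4-OHT. Wild-type cells were cultured for 4 days, and no label says that these received 4-OHT. RNA came from ES3 knockout and wild-type cells of the same time and, for comparison, from knockout (5 days) and wild-type mouse embryonic fibroblasts (MEFs) of the same strain. The labels describe 18 libraries, 1 for each condition and assay, and RNA was extracted from pooled duplicates. There is therefore no replicate spread, and no test between conditions could be made. Depth is unknown, since the files hold regions and RPKM (reads scaled to transcript length and library) and no counts.

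H3K9me3 is a repressive histone mark. In embryonic stem cells, zinc finger proteins bring the corepressor TRIM28 to retrotransposons and other DNA, and TRIM28 brings in SETDB1, an enzyme that places the mark. Other enzymes, such as SUV39H1 and SUV39H2, place it without TRIM28. The list the study itself worked with, per the labels, was the opposite one, the regions found in wild type only. The submitters' labels state that the mark is reduced but still present at this time. Trim28 itself stood at 37.2 RPKM in knockout ES3 cells and 1050.7 RPKM in wild-type ES3 cells, or 3.54% of wild type.

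The clearest places to see single knockout-only regions are gene starts. Among genes with a knockout-only region and no wild-type region within 20 kb, the start of 24 lay inside a knockout-only region. The promoters of 5 of these are shown because they span what was found there: Rbm46, Tex12 and Mov10l1, genes used in meiosis or the germline and rich in CG dinucleotides, Tdpoz4, a gene active at the two-cell stage and without any CG in this window, and Timm8a2, from the stretch of chromosome 14 described further on. Each line holds the 250 bases before the gene start, 5′ to 3′ on the gene's strand, from RefSeq (build GRCm38.p6), with CG dinucleotides in capitals.
Rbm46: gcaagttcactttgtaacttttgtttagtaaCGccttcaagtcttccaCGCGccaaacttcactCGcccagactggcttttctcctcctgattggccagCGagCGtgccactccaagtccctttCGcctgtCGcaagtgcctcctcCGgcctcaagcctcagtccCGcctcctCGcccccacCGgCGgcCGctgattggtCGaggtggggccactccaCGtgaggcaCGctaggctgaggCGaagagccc
Tex12: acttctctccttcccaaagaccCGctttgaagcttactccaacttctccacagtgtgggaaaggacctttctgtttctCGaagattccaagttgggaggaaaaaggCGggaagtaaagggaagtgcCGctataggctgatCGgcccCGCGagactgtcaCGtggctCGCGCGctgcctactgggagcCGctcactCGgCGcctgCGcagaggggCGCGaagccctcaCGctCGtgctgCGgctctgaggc
Mov10l1: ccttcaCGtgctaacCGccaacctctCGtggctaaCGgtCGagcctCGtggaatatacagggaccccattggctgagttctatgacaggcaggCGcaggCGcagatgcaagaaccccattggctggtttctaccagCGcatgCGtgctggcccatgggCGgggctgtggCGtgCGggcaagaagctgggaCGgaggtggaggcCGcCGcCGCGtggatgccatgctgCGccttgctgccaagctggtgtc
Tdpoz4: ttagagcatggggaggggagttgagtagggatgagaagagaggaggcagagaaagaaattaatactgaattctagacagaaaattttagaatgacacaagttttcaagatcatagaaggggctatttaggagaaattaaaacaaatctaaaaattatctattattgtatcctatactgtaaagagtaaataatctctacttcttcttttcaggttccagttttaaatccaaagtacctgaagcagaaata
Timm8a2: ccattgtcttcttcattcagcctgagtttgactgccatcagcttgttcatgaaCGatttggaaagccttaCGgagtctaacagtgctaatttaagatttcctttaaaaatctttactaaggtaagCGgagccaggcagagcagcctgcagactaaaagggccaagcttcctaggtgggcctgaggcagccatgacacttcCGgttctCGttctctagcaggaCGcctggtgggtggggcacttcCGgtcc
In GRCm38.p6 these are chr3:82876484-82876733 on the minus strand, chr9:50561269-50561518 on the minus strand, chr15:88982744-88982993 on the plus strand, chr3:93796148-93796397 on the plus strand and chr14:122034424-122034673 on the plus strand, in the order printed. They hold 18, 20, 19, 0 and 7 CG dinucleotides, against a median of 6 over 32851 RefSeq promoters of the same length. The deposited regions are in another build, mm9, and their own sequence was not analysed here. In mm9 the knockout-only regions over these starts are chr3:82680040-82681079 (Rbm46), chr9:50368822-50369823 (Tex12), chr15:88812432-88813651 (Mov10l1), chr3:93599522-93601245 (Tdpoz4) and chr14:122433468-122435423 (Timm8a2). The nearest wild-type region lay 95086, 145156, 48669, 19728 and 195182 bases away.

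Of the 24 promoters, 20 were matched in RefSeq, with a median of 7 CG dinucleotides. Searched on both strands, CACGTG, the E-box read by MYC and MAX family proteins, occurred in 3 of the 20 (15%) and in 6.02% of all promoters. The 3 are those of Rbm46, Tex12 and Mov10l1. TCCCGC, the core read by E2F proteins, occurred in 4 of 20 (20%) and in 16.9% of all. TGCCGC, the sequence read by the TRIM28 partner ZFP57 when it is methylated, occurred in 2 of 20 (10%) and in 8.68% of all. Over the 1344 matched promoters of all genes near knockout-only regions alone, the shares were 8.11% for CACGTG, 24.2% for TCCCGC and 12.9% for TGCCGC. Their median was 12 CG dinucleotides, against 7 for the 20. The motif counts of 3, 4 and 2 among the 20 are too small to set their shares apart from either background. TCCCGC and TGCCGC differ in their second letter and end alike, and a match is a description of the letters alone.

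Most knockout-only regions stood far from any wild-type region. By the gap between region edges, 1492 (7.9%, Wilson 95% interval 7.52 to 8.29%) were under 1 kb from a wild-type region, 5073 (26.9%, 26.2 to 27.5%) were 1 to 10 kb away and 12319 (65.2%, 64.6 to 65.9%) were farther. Intervals here cover counting error only. The mirror set, the 19057 wild-type-only regions, had 1785 (9.37%), 5929 (31.1%) and 11343 (59.5%) in the same classes, measured to the knockout list. The median gap was 22746 bases for knockout-only regions and 17527 bases for wild-type-only regions. At the thresholds, the nearest values were 997 and 1000 bases, and 9999 and 10001 bases. Regions on the edge of the rule were few: 21 knockout-only regions lay less than 50 bases from a wild-type region, and 369 shared knockout regions overlapped one by fewer than 50 bases. A shared knockout region was covered by wild-type regions over a median of 95.8% of its length.

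**Figure D1:**
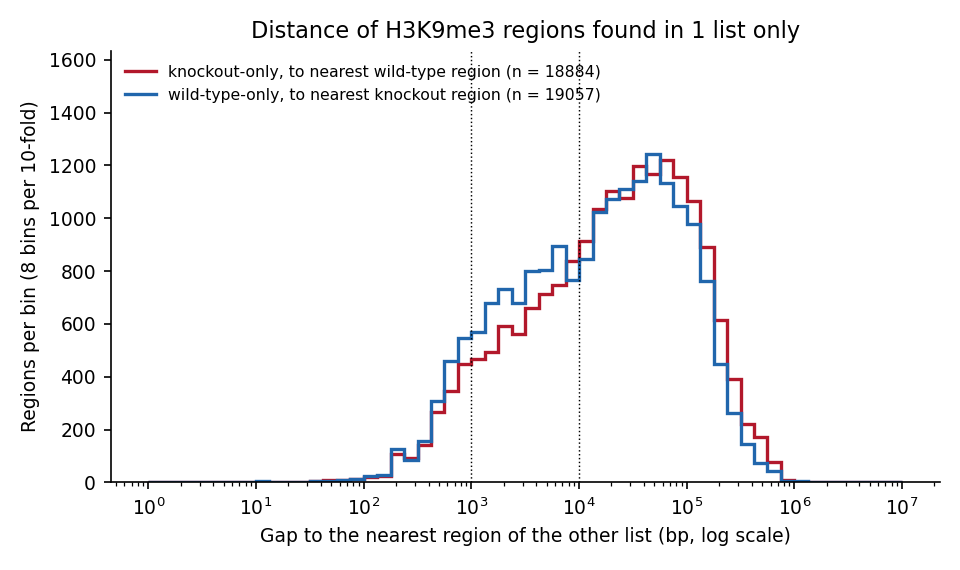
Number of H3K9me3 regions (vertical axis) by the gap in bases to the nearest region of the other list (horizontal, log scale), for 18884 knockout-only regions (red) and 19057 wild-type-only regions (blue). Dotted lines mark 1 kb and 10 kb. Both curves peak between 10 kb and 100 kb, and the red one lies to the right of the blue one, with medians of 22746 and 17527 bases.

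The farthest regions clustered on chromosome 6. The 5 knockout-only regions with the largest gap to wild type included 4 within chr6:94390823-94560381, between 800714 and 875203 bases from a wild-type region, around Slc25a26, a mitochondrial carrier gene, and Lrig1, a regulator of growth factor receptors. Slc25a26 stood at 6.59 RPKM in knockout cells and 8.87 RPKM in wild-type cells. The fifth, chr5:66385284-66386020, lay in 9130230L23Rik, listed at 0 RPKM in knockout cells and 0.212 RPKM in wild-type cells.

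Knockout-only regions were short. Their median width was 511 bases (quartiles 393 and 721), against 738 bases for the 18337 regions of the knockout list that overlap wild type and 581 bases for wild-type-only regions. Regions of 1 kb or more made up 12.7% of knockout-only, 37.3% of shared knockout and 22.6% of wild-type-only regions. A wider region is more likely to share a base with the other list, so the difference from shared regions is in part tied to the rule. Those farther than 10 kb from wild type were the shortest class (median 495 bases), and those under 1 kb and at 1 to 10 kb had medians of 535 and 543 bases. Knockout-only regions covered 11.9 Mb in all, of the 38.1 Mb of the knockout list. The widest was chr14:44665650-44676261, with 10612 bases, and its nearest gene start was that of 4930503E14Rik, 72774 bases away. Within 1 Mb of it lay 3 further regions of 6967 to 7280 bases, whose nearest gene start was that of Ear1, an eosinophil ribonuclease gene listed at 0 RPKM in knockout and in wild-type cells. The widest on chromosome 6 within 10 kb of a wild-type region, chr6:57701595-57708378, lay in Vopp1.

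A larger share of knockout-only regions lay inside genes. Gene spans held 28.3% of knockout-only regions (27.7 to 29%), 15.5% of shared knockout regions (15 to 16%) and 19.4% of wild-type-only regions (18.8 to 19.9%). The share was 15.9% under 1 kb from wild type, 19.3% at 1 to 10 kb and 33.5% farther. The wild-type-only classes had 16%, 16.5% and 21.4%. Closeness to gene starts was alike in all sets: 17.8% of knockout-only, 16.6% of shared and 18.6% of wild-type-only regions lay within 20 kb of one. Knockout-only regions were also more scattered, since 53.7% had another knockout region within 10 kb, against 68% of shared regions, with median gaps of 8026 and 2485 bases.

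Chromosomes 6 and 14 stood apart. Chromosome 6 held 2927 knockout-only and 915 wild-type-only regions, a ratio of 3.2, and chromosome 14 held 2523 and 929, a ratio of 2.72. On the other 18 chromosomes (1 to 19 and X) the ratio ranged between 0.372, on chromosome 1 with 1005 against 2703 regions, and 1.26, on chromosome 7. Together chromosomes 6 and 14 carried 28.9% of knockout-only regions and 9.68% of wild-type-only regions. Knockout-only regions made up 75% of the knockout list on chromosome 6, 78.9% on chromosome 14 and 44.6% on the rest. Without these chromosomes, 13434 knockout-only and 17213 wild-type-only regions remained, the share farther than 10 kb was 60.8% and 59.8%, and the median width was 490 and 582 bases. The share inside gene spans was then 27.2% of knockout-only and 19.4% of wild-type-only regions. The 4 other regions without a counterpart chromosome in the wild-type list lay on the mitochondrial genome.

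**Figure D2:**
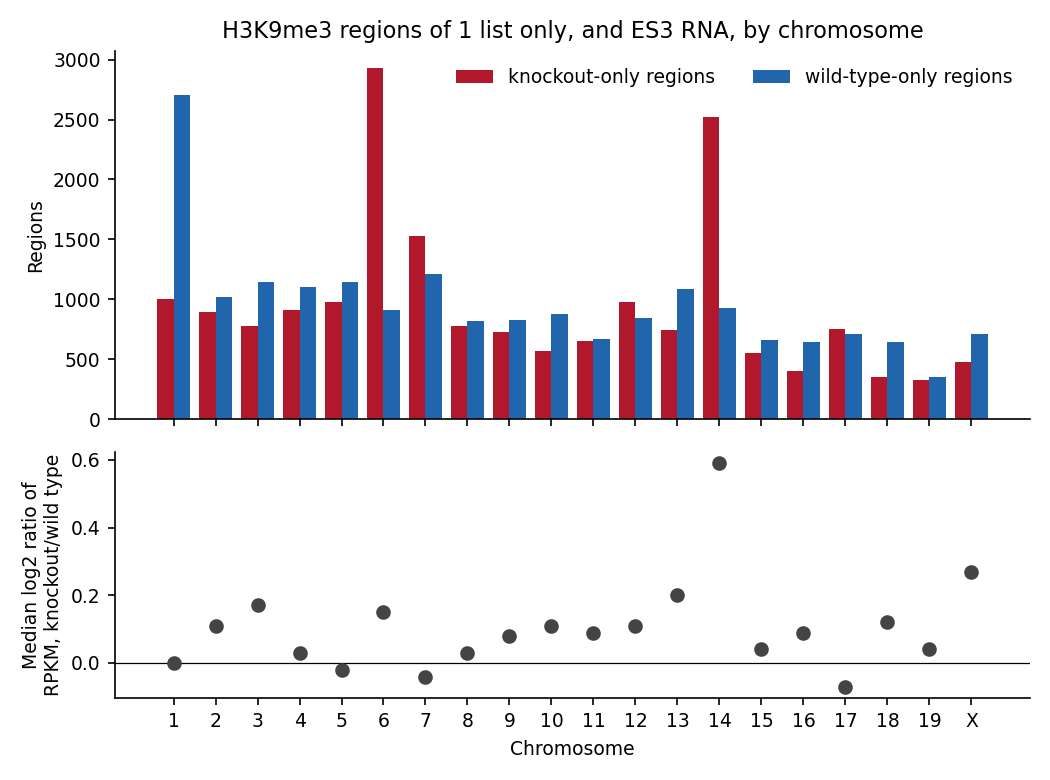
Upper panel, number of knockout-only (red) and wild-type-only (blue) regions on each chromosome. Lower panel, median log2 ratio of RPKM, knockout over wild type, of the measured genes of that chromosome in ES3 cells. Chromosomes 6 and 14 carry 2927 and 2523 knockout-only regions, chromosome 1 carries 2703 wild-type-only regions, and chromosome 14 has the highest RNA median, 0.59.

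Genes of chromosome 14, but not those of chromosome 6, were also more often higher in the knockout RNA. RNA differences are given as log2((knockout + 1)/(wild type + 1)) of RPKM. A gene counts as measured where either library reached 1 RPKM, and as higher or lower where it passed 2-fold. In bulk RNA, fewer cells of a type and less RNA per cell cannot be told apart. The median log2 ratio was 0.59 over 409 measured genes of chromosome 14, where 114 (27.9%) were higher, and 0.15 over 539 genes of chromosome 6, where 67 (12.4%) were higher. All 12024 measured genes had 12.5% higher, 3.18% lower and a median of 0.08. In MEFs the medians of chromosomes 14 and 6 were -0.08 and -0.01. The lists hold no read depth, so the amount of DNA of each chromosome in the 2 ES3 cultures was not tested.

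Within the chromosomes the regions fell into long stretches, bounded here after their counts were seen. Of the 20 bins of 5 Mb with most knockout-only regions, out of 540, 10 were on chromosome 6, 6 on chromosome 14 and 4 elsewhere. These 20 held 25.4% of all knockout-only regions, and the median bin held 22. The stretch of chromosome 6 from 85 to 150 Mb held 2578 knockout-only and 254 wild-type-only regions, and its RNA median was 0.15, with 36 of 293 genes higher. From 0 to 85 Mb the chromosome held 349 and 661 regions, with a median of 0.13. The distal and proximal parts of chromosome 6 thus differed in their regions and had RNA medians of 0.15 and 0.13. Chromosome 1 from 75 to 200 Mb had the opposite excess, 645 knockout-only against 2088 wild-type-only regions, and an RNA median of -0.15. From 0 to 75 Mb it also held more wild-type-only regions, 615 against 360 knockout-only, and there the RNA median was 0.30.

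**Figure D3:**
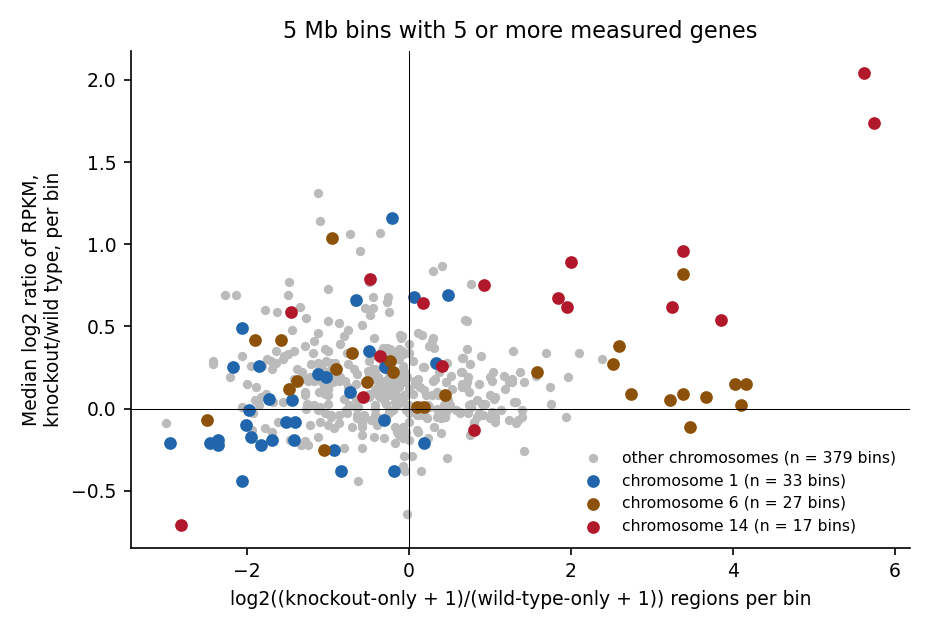
Bins of 5 Mb with 5 or more measured genes (points). The horizontal axis is the log2 ratio of knockout-only to wild-type-only regions in the bin, each count plus 1, and the vertical axis is the median log2 ratio of RPKM, knockout over wild type. The 2 bins highest on both axes are on chromosome 14, and bins of chromosome 6 spread to the right near the level of the other chromosomes.

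At the distal end of chromosome 14 an excess of knockout-only regions and higher RNA lay together. Between 118 and 126 Mb lay 560 knockout-only, 9 wild-type-only and 30 shared regions, and 22 of 23 measured genes were higher in knockout cells. All 23 had log2 ratios above 0, between 0.65 and 3.25, with a median of 1.85. Dnajc3, a chaperone of the endoplasmic reticulum, stood at 39.1 RPKM in knockout cells and 3.22 RPKM in wild-type cells (log2 ratio 3.25). Mbnl2, a splicing regulator, stood at 23.4 and 1.95 RPKM in knockout and wild-type cells. Zic2 and Sox21, transcription factors of the nervous system, stood at 23.5 and 4.33 RPKM in knockout cells, against 3.07 and 0.598 RPKM in wild-type cells. Ipo5, a nuclear import receptor, was the most abundant, at 360.7 RPKM in knockout cells and 106.6 RPKM in wild-type cells. The genes thus had unlike levels and functions and shared the direction. The one gene short of 2-fold was Hs6st3, a heparan sulfate sulfotransferase, at 1.17 and 0.381 RPKM in knockout and wild-type cells.

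With 22 of the 23 genes higher, closeness to a single region could not be told apart from lying in the stretch. Of the 23, 16 had a knockout-only region and no wild-type region within 20 kb, and 15 of those were higher. The other 7, among them Tgds (22.4 RPKM in knockout cells, 5.5 in wild-type cells) and Rap2a (30.6 and 2.7 RPKM), were all higher. Among these 7, Stk24 and Pcca had 3 and 4 knockout-only regions within 20 kb, beside a wild-type region. In MEFs 17 of the 23 genes were measured, 0 were higher, 1 was lower and the median was -0.17. In MEFs the shares over all 10805 measured genes were 0.981% higher and 4.84% lower. The stretch from 46 to 72 Mb had 416 knockout-only and 44 wild-type-only regions, with 68 of 201 genes higher and a median of 0.76. The stretch from 74 to 80 Mb ran the other way, with 23 knockout-only and 147 wild-type-only regions, 0 of 27 genes higher, 8 lower and a median of -0.71. Over all 456 bins, without singling out a chromosome, Spearman rho between the 2 measures was -0.00898, and it was -0.0689 over the 412 bins outside chromosomes 6 and 14. With the RNA medians of MEFs in place of those of ES3 cells, rho was 0.259 and 0.287, over those of the same bins that had a MEF value. Bins of 1 genome share base composition and gene density, so rho is a description.

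Some knockout-only regions recurred as repeated copies. Runs of 4 successive regions with the same 4 widths were found more than once, in 131 distinct runs that held 434 regions (2.3%) on 9 chromosomes. Chromosomes 14 and 7 held most of them, 136 and 120 regions, and chromosome 6 held 50. On chromosome 4, chr4:121273809-122292939 held 78 knockout-only regions, 105 wild-type regions and 0 gene starts of the table. There, regions of 926, 944, 5715, 478 and 1723 bases followed each other from position 121511904 and again from 121904882. Both copies of the widest lay 1008 bases from a wild-type region. Reads from near-identical copies cannot be placed with certainty, and the sources used here do not say how such reads were handled.

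A smaller share of knockout-only regions than of other H3K9me3 regions held a TRIM28 peak. These peaks were called by the authors in ES3 cells, and their scores are the authors'. Of the 3099 peaks of wild-type TRIM28 over input, 139 fell in knockout-only regions, so that 0.736% of the regions (0.624 to 0.868%) held one. The share was 2.81% of shared knockout regions (2.58 to 3.06%) and 1.66% of wild-type-only regions (1.49 to 1.85%). Per length, there were 11.7 peaks per Mb of knockout-only region, against 21.4 and 21.5 per Mb of shared and wild-type-only region, so the lower share also held per length. By distance, 8 regions under 1 kb (0.536%), 24 at 1 to 10 kb (0.473%) and 107 farther (0.869%) held a peak. The intervals were 0.272 to 1.05% under 1 kb, 0.318 to 0.703% at 1 to 10 kb and 0.719 to 1.05% farther. They cover counting error only. Regions lie in clusters and come from 1 list, so the intervals are no test of distance. The share was 0.729% without chromosomes 6 and 14.

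The list of peaks called in knockout cells over input gave another order. Trim28 RNA stood at 3.54% of wild type in these cells. The 1898 peaks of this list fell in 0.545% of knockout-only regions (0.45 to 0.661%), 0.78% of shared regions and 0.21% of wild-type-only regions. Without chromosomes 6 and 14 the shares were 0.64% (0.519 to 0.79%), 0.779% (0.656 to 0.924%) and 0.221%, so the first 2 intervals overlapped. Per length, over all chromosomes, the order was different again, with 8.66 peaks per Mb of knockout-only region, 6.02 of shared and 2.68 of wild-type-only region. The lists differ in length, and as a share of its list, knockout-only regions held 5.43% of the knockout peaks and 4.49% of the wild-type peaks, and wild-type-only regions held 2.11% and 10.4%. Of the 139 knockout-only regions with a wild-type peak, 70 (50.4%) also held a peak called in wild type over knockout, against 219 of 316 wild-type-only regions (69.3%), and 12 also held a knockout peak. A further 91 knockout-only regions held a knockout peak and no wild-type peak. Of all knockout-only regions, 0.662% held a peak called in wild type over knockout, and 0.581% did without chromosomes 6 and 14. On chromosome 14 from 118 to 126 Mb lay 58 peaks called in wild type over knockout and 33 in wild type over input. The whole lists hold 2382 and 3099.

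**Figure D4:**
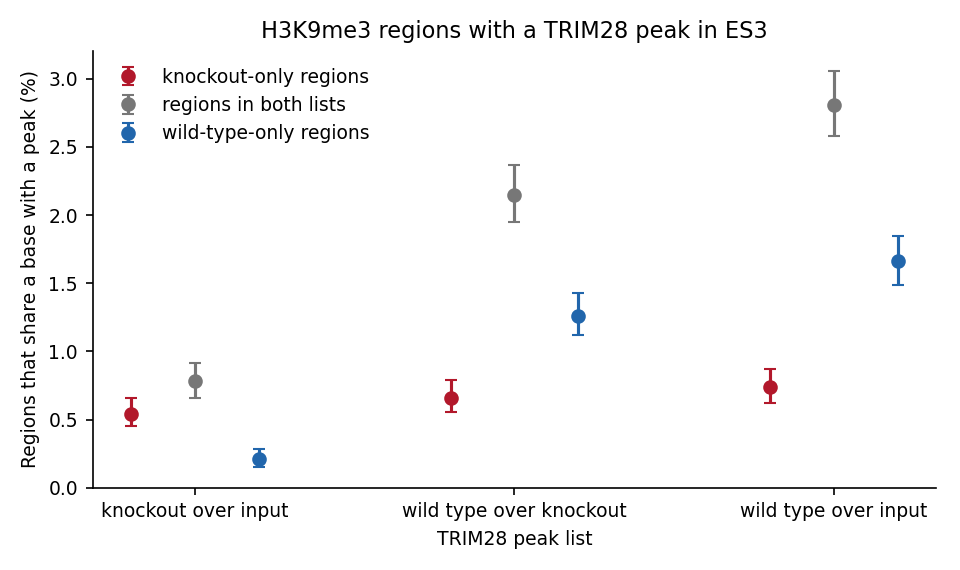
Share of H3K9me3 regions (percent) that share a base with a TRIM28 peak, for 3 peak lists and for knockout-only (red), shared (grey) and wild-type-only (blue) regions, with Wilson 95% intervals that cover counting error only. Knockout-only regions lie between 0.545% and 0.736% in the 3 lists, which hold 1898 to 3099 peaks, and wild-type-only regions stand at 0.21% for the knockout list and 1.66% for the wild-type list.

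The wild-type TRIM28 peaks in knockout-only regions had scores far below the top of their list. Given by the knockout-only region that holds the peak, the highest scores were 165.7 at chr19:41835105-41835525, 16949 bases from the start of the axon guidance gene Slit1, 163.4 at chr5:36938566-36938769 near Tbc1d14, and 151.4 at chr13:107074397-107074852, where the nearest gene start, of the import receptor gene Ipo11, is 652142 bases away. Over the whole list the median score was 59.73 and the highest 1794.10. The peak on chromosome 19 overlapped a knockout peak, and the peaks on chromosomes 5 and 13 overlapped a wild-type-over-knockout peak. The next scores were 138.4 at chr18:11288512-11288860, which overlapped a knockout peak, and 136.2 at chr12:73129518-73129794, which overlapped neither. Slit1, at 0.842 RPKM in knockout cells and 0.359 RPKM in wild-type cells, was not measured. Tbc1d14 stood at 3.72 and 3.53 RPKM and Ipo11 at 21.8 and 22.7 RPKM. The gene start nearest the chromosome 18 region, 236003 bases away, was that of Gata6, at 17.1 RPKM in knockout cells and 0.699 RPKM in wild-type cells. For the chromosome 12 region it was that of Gpr135, at 1.55 and 2.02 RPKM.

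Within 20 kb, genes near knockout-only regions alone were slightly more often higher in knockout cells than genes at large. With a window of 100 kb the order turned (12.2% against 12.5%), and with no filter on low values the shares were 8.69% and 8.46%. These were the 1727 of 17818 genes (9.69%) with a knockout-only region within 20 kb of the start and no wild-type region in that window. Of them 921 were measured, 150 were higher (16.3%, against 12.5% of all measured genes). A further 32 were lower (3.47%, against 3.18%), and their median was 0.15. Genes near wild-type-only regions alone had 151 of 1177 higher (12.8%), 52 lower (4.42%) and a median of 0.06, and genes with no region in the window had 11% higher and a median of 0.06. The highest share, 19% of 1396, belonged to genes with regions of both lists. A gene under 1 RPKM in wild type enters only through the knockout value. Of the 921, 11 were listed at 0 in wild type, and those between 0 and 1 RPKM were not counted. Only 53.3% of the 1727 were measured, against 67.5% of all genes.

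Chromosome 14 held much of the excess. There 23 of 49 measured genes near knockout-only regions alone were higher (46.9%), with 0 lower, and had a median of 0.95. The other genes of the chromosome had 91 of 360 higher (25.3%) and a median of 0.54. On chromosome 6 there were 15 higher and 6 lower of 104, at a median of 0.11. On all other chromosomes 112 of 768 (14.6%) were higher, 26 were lower with 0.13 as the median log2 ratio. The share and median over all genes of those chromosomes were 12% and 0.06.

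**Figure D5:**
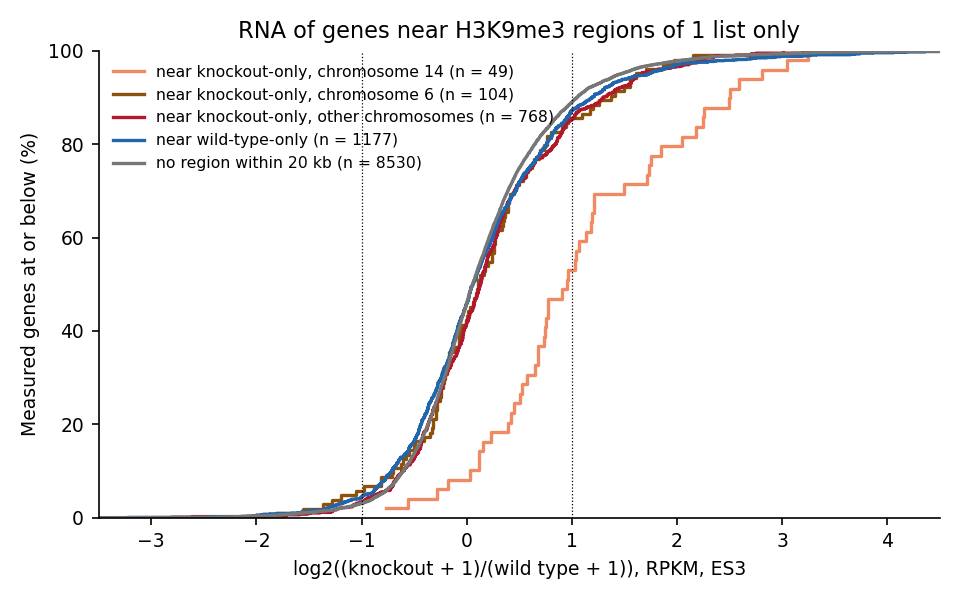
Cumulative share of measured genes (vertical) by log2 ratio of RPKM, knockout over wild type, in ES3 cells (horizontal), for genes near knockout-only regions alone on chromosome 14 (49 genes), chromosome 6 (104) and other chromosomes (768), near wild-type-only regions alone (1177) and with no region within 20 kb (8530). Dotted lines mark 2-fold. The chromosome 14 curve lies far to the right, with a median of 0.95, and the others nearly coincide.

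Distance to the start and number of regions were described for the same genes. Over all measured genes 12.5% were higher and 3.18% lower, and outside chromosomes 6 and 14 the shares were 12% and 3.26%. With the start inside a knockout-only region or up to 1 kb away, 52 of 149 genes were measured, of which 18 were higher and 1 was lower at a median of 0.58. Outside chromosomes 6 and 14 these were 9 higher (24.3%) and 1 lower of 37, with a median of 0.23. The wild-type-only counterpart had 7 higher (20.6%) and 1 lower of 34 and a median of 0.18. Some of the 18 genes, among them Sox17 and Grb10 at 0.197 and 0.908 RPKM in wild-type cells, were measured only through the knockout value. At 1 to 5 kb the median was 0.09, at 5 to 10 kb 0.20 and at 10 to 20 kb 0.12, with no steady trend beyond 1 kb. The shares higher in these 3 classes were 13.7%, 15.3% and 15.7%, below the 34.6% up to 1 kb. Outside chromosomes 6 and 14 they were 11.8%, 14.4% and 14.9%, below 24.3%. Genes with 1 region had 114 of 807 higher (14.1%), those with 2 or 3 had 30 of 98 (30.6%), and those with 4 or more had 6 of 16 (37.5%). Outside chromosomes 6 and 14 these were 93 of 706 (13.2%), 18 of 56 (32.1%) and 1 of 6 (16.7%). The median for 4 or more was then 0.12, against 0.59 with those chromosomes. The region nearest to the start lay upstream for 901 genes, in the gene for 607, downstream for 195 and over the start for 24.

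Of the 12 measured genes with the highest log2 ratios, 4 were on chromosome 14, 1 was on chromosome 6 and 7 were elsewhere. Pth1r, the parathyroid hormone receptor known from parietal endoderm, stood at 26.2 RPKM in knockout cells and 0.464 RPKM in wild-type cells (4.22), with a region of 395 bases 2188 bases into the gene, at chr9:110642402-110642796. Sox17, a transcription factor of endoderm, stood at 14.8 and 0.197 RPKM in knockout and wild-type cells (3.72), and a region of 768 bases, chr1:4487859-4488626, lay 423 bases upstream of its start. Both genes therefore were higher in the condition in which the region was called. Krt19, an epithelial keratin, stood at 38.6 RPKM in knockout cells and 3.32 RPKM in wild-type cells. Glipr1 stood at 47.4 RPKM in knockout cells and 2.89 RPKM in wild-type cells, Rhob, a small GTPase, at 56 and 7.45 RPKM, and Slc34a2, a phosphate transporter, at 5.64 and 0.0184 RPKM. Pdlim3, an actin-linked protein, and Ccnd2, cyclin D2, had log2 ratios of 2.71 and 3.00. The last 2 of the 12, Tm9sf2 and Mbnl2, lie on distal chromosome 14 with Dnajc3 and Zic2.

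Primitive endoderm markers as a whole were far higher in the knockout library, summing to 2483.3 RPKM against 248.8 RPKM in wild type over 18 markers, 17 of which were higher. ES identity markers summed to 1398.2 RPKM in knockout cells and 2627.4 RPKM in wild-type cells, with 9 of 9 at 1 RPKM or more in both. Fibroblast markers summed to 17.5 and 2.31 RPKM in knockout and wild-type cells, with 4 of 9 at 1 RPKM or more in knockout cells and 1 of 9 in wild-type cells. Endothelial markers summed to 18.8 and 17 RPKM in knockout and wild-type cells, with 5 of 5 at 1 RPKM or more in knockout cells and 2 of 5 in wild-type cells, medians of 3.41 and 0.173 RPKM, and 2 higher. Leukocyte markers summed to 90.6 and 172.7 RPKM in knockout and wild-type cells, with 2 of 4 at 1 RPKM or more in both. How far a mixture of cell types moves the RNA of genes near knockout-only regions was not tested. Of the 28 genes of the primitive endoderm list, 2 (7.14%, against 9.69% of all genes) had such regions alone within 20 kb, Sox17 and Ttr, the carrier transthyretin (1.33 RPKM in knockout cells, listed at 0 in wild-type cells).

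Of the 8 genes with the lowest ratios, 2 were on chromosome 6 and 0 on chromosome 14, and Sgk2 and Gtsf1l lie near each other on chromosome 2. Krt17, a keratin gene whose start is 12171 bases from a region, stood at 1.54 RPKM in knockout cells and 16.7 RPKM in wild-type cells (-2.80). Adap1 stood at 3.52 and 26.5 RPKM in knockout and wild-type cells (-2.61). Polr3gl, a subunit of RNA polymerase III, stood at 1.77 and 9.3 RPKM in knockout and wild-type cells (-1.90), and was the one lower gene with a region up to 1 kb from its start, chr3:96398386-96398451, of 66 bases. Gtsf1l, the guidance factor Ntn1, Sgk2 and the aldose reductase Akr1b3 had log2 ratios between -1.72 and -1.55.

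Of 23 ES identity genes, 4 (17.4%, against 9.69% of all genes) had a knockout-only region alone within 20 kb, and 2 of these were lower, against 3.18% of all measured genes. Nanog, a core pluripotency factor, stood at 25 RPKM in knockout cells and 66.1 RPKM in wild-type cells (-1.37), with a region of 472 bases 1879 bases upstream of its start, at chr6:122655156-122655627, and no wild-type region for 63438 bases. Klf2 stood at 43.2 and 106.1 RPKM in knockout and wild-type cells (-1.28), with a region 13773 bases upstream. Klf5 stood at 105.8 and 180.3 RPKM (-0.76), and Tbx3 at 8.94 and 9.19 RPKM (-0.04). Klf5 lies on chromosome 14, whose RNA median was 0.59, in a 5 Mb bin whose median was -0.13 over 5 measured genes. The whole list had 12 lower and 0 higher of 23, at a median of -1.11, beside -1.02 for the 4 with regions.

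Genes with the start inside a knockout-only region were mostly silent in both conditions. Only 7 of the 24 (29.2%) were measured, against 67.5% of all genes, and among genes with the start inside a wild-type-only region alone 4 of 20 (20%) were. The 7 had a median of 0.37, and 2 were higher (28.6%, against 12.5% of all measured genes). Both lie on chromosome 14, where 27.9% of all measured genes were higher. Efha1, a subunit of the mitochondrial calcium uniporter complex, stood at 5.59 RPKM in knockout cells and 1.33 RPKM in wild-type cells. Timm8a2, a mitochondrial import protein, stood at 1.42 and 0.185 RPKM (1.03), and so was measured only through the knockout value. It had 9 knockout-only regions within 20 kb, the most of any measured gene. Mov10l1, a helicase of the germline piRNA pathway, stood at 1.18 and 0.684 RPKM in knockout and wild-type cells (0.37). Zfp772, Tuba3b and Mesp2, a regulator of somite formation, stood at 2.18, 1.66 and 1.38 RPKM in knockout cells, against 1.71, 0.838 and 1.33 RPKM in wild-type cells. Rps13, at 130.9 and 148.5 RPKM, is placed on chromosome 8 in the table, while RefSeq has it on chromosome 7, so its row may stand for a copy of the gene and is uncertain.

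The 17 others were below 1 RPKM in both libraries. Rbm46, an RNA-binding protein needed for meiosis, stood at 0.344 RPKM in knockout cells and 0.0431 RPKM in wild-type cells. Tex12, a part of the synaptonemal complex, was listed at 0 RPKM in knockout cells and 0.119 RPKM in wild-type cells. Tdpoz4 stood at 0.427 RPKM in knockout cells and was listed at 0 in wild-type cells. The set also held 3 neighbouring trace amine receptor genes, Taar8a, Taar8b and Taar8c, which are near-identical copies, the olfactory receptor gene Olfr93, the kallikrein Klk1, the cytokine gene Tnf, the oxidases Xdh and Duox2, Fcamr, Fcrl6 and Rp1l1. The highest value among these was that of Klk1, 0.12 RPKM in knockout cells and 0.589 RPKM in wild-type cells. The regions over the 24 starts were 219 to 1956 bases wide, with a median of 680 bases, against 511 bases for all knockout-only regions, and 7 of them reached 1 kb, among them those of Rbm46, Tex12, Mov10l1, Tdpoz4 and Timm8a2.

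Hox genes, the homeodomain genes that pattern the body axis and are held silent in stem cells, were the list with the largest share near knockout-only regions alone. They made up 19 of 38 Hox genes (50%), beside 9.69% of all genes. The 38 genes lie in 4 clusters and share regions, so they are not separate observations. The Hoxa cluster (chr6:52105366-52210797) held 4 knockout-only and 0 wild-type regions, with 8 of its 12 genes near one. The Hoxc cluster (chr15:102751562-102867272) also held 4 knockout-only and 0 wild-type regions, with 5 of 8 genes near one. The Hoxb cluster (chr11:96055630-96229570) held 6 knockout-only and 3 wild-type-only regions, with 6 of 10 genes near a knockout-only region alone, and the Hoxd cluster held 0 regions of either list. The Hoxa cluster lies in the part of chromosome 6 below 85 Mb, which held fewer knockout-only than wild-type-only regions (349 against 661), and 11 of the 19 genes lie on other chromosomes.

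The 14 regions in the 3 clusters were 389 to 1446 bases wide. Those in Hoxa included chr6:52186314-52186882, chr6:52187557-52188191 and chr6:52200466-52201911. The Hoxc regions were chr15:102763334-102764564, chr15:102768680-102769201, chr15:102790395-102790783 and chr15:102802849-102803926, between 174586 and 214101 bases from a wild-type region. The gaps were 56649 to 150731 bases in Hoxa and 13 to 82956 bases in Hoxb. None of the 14 held a wild-type TRIM28 peak, and 0.736% of all knockout-only regions did. At so low a share, a lack of peaks in 14 regions does not set them apart. Their genes were nearly silent: 3 of the 19 were measured and 4 were listed at 0 in both libraries. Hoxc13 stood at 3.44 RPKM in knockout cells and 0.76 RPKM in wild-type cells (1.34), and Hoxb9 at 1.77 and 0.318 RPKM (1.07). The highest level among the 19 was thus 3.44 RPKM. Hoxa11 and its antisense gene Hoxa11as were both under 1 RPKM, and whether reads were counted by strand is not given in the sources used here.

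Imprinted genes are read from a single parental allele, and at several of them TRIM28 and ZFP57 keep H3K9me3 on the silent one. Of 43 such genes, 8 (18.6%, against 9.69% of all genes) had a knockout-only region alone nearby. Among the 5 measured, 2 were higher and 1 was lower, where 12.5% and 3.18% of all measured genes were. Grb10, a growth inhibitor, stood at 8.68 RPKM in knockout cells and 0.908 RPKM in wild-type cells (2.34), had 5 knockout-only regions within 20 kb, and the nearest, chr11:11938101-11938317, lay 368 bases inside the gene. Plagl1, a zinc finger regulator of growth, stood at 6.51 and 2.12 RPKM in knockout and wild-type cells (1.27). Slc38a4, an amino acid transporter, stood at 17.8 RPKM in knockout cells and 45 RPKM in wild-type cells (-1.29), with a region 1299 bases into the gene at chr15:96884862-96885087. The log2 ratios of Sfmbt2 and Cdkn1c were 0.92 and 0.77. Dio3, Nap1l5 and Rasgrf1 were under 1 RPKM in both libraries. The whole list had 9 higher and 3 lower of 36, at a median of 0.31.

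Other lists ranged from below to above the share of all genes near knockout-only regions alone. Zfp zinc finger genes had 27 of 329 (8.21%), close to the 9.69% of all genes. Of these 20 were measured, 0 passed 2-fold in either direction, and the median was 0.03. The whole Zfp list had 19 higher and 4 lower of 276 measured, at a median of 0.11. Olfactory receptor genes had 26 of 175 (14.9%) and vomeronasal receptor genes 11 of 65 (16.9%), nearly all unmeasured. Ribosomal protein genes had 13 of 91 (14.3%), with 0 of 12 past 2-fold and a median of -0.29. The whole ribosomal list had 1 higher and 0 lower of 89 measured, at a median of -0.08. The pattern also takes in Rps6ka2, a kinase gene. Rhox genes, a homeobox cluster of the X chromosome, had 5 of 19 (26.3%), with Rhox6 at 7.48 RPKM in knockout cells and 2.44 RPKM in wild-type cells. The trophectoderm list had 4 of 14 (28.6%), the streak and mesoderm list 4 of 16 (25%), the two-cell stage list 3 of 15 (20%) and the germline list 2 of 19 (10.5%), where 1 gene was measured and 0 passed 2-fold. Among developmental regulators, T (brachyury) stood at 6.15 RPKM in knockout cells and 0.376 RPKM in wild-type cells, and Gata3, a regulator of trophectoderm with a region 816 bases upstream, at 2.96 and 0.993 RPKM (0.99). Eomes, Mixl1, Mesp1 and Six3 were under 1 RPKM in both libraries. Of the two-cell stage genes, Dub1a stood at 2.18 RPKM in knockout cells and was listed at 0 in wild-type cells. Dub1 stood at 1.21 and 0.177 RPKM, and Dub genes are near-identical copies.

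Some single members of other lists past 2-fold were Tnfrsf10b, a death receptor and p53 target on chromosome 14, at 31.4 RPKM in knockout cells and 6.12 RPKM in wild-type cells, and Flt1, a VEGF receptor, at 3.15 and 0.0858 RPKM. Ctgf, a matrix protein, stood at 124.6 RPKM in knockout cells and 48.5 RPKM in wild-type cells. Vwf stood at 0.415 and 2.24 RPKM in knockout and wild-type cells (-1.19). Of 30 genes of the TRIM28 and H3K9 methylation list, Atf7ip, a partner of SETDB1, and Chd4, a remodeller, had regions alone, with log2 ratios of -0.82 and -0.18. Both lie on chromosome 6. Setdb1, Suv39h1 and Suv39h2, which place the mark, were not among the genes near knockout-only regions alone.

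In MEFs the same genes stood close to all genes. No H3K9me3 list of MEFs was analysed here. Of the ES3 members, 856 were measured in MEFs, with 7 higher (0.818%, against 0.981% of all), 38 lower (4.44%, against 4.84%) and a median of 0.00. Of the 12 genes with the highest ES3 ratios, 0 were higher in MEFs and 1, Mbnl2, was lower, at 7.66 RPKM in knockout MEFs and 23.3 RPKM in wild-type MEFs. Pth1r stood at 0.647 and 0.51 RPKM in knockout and wild-type MEFs, and Sox17 was listed at 0 in both. Slc38a4 was lower in both cell types, with log2 ratios of -1.29 in ES3 cells and -1.19 in MEFs.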

How the data were processed

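H3K9me3 and TRIM28 chromatin immunoprecipitation and RNA sequencing were analysed, 1 library for each condition. Bowtie and build mm9 are named per the submitters' processing notes. Their versions, the H3K9me3 caller, the counting of reads and the treatment of multiply mapped reads are not stated in the sources used here. The deposited H3K9me3 lists give positions without a value. They also deposited TRIM28 peaks with a score per peak, whose scale is not stated and whose names are those MACS writes. Expression was deposited by the authors as RPKM per RefSeq transcript; duplicates were pooled before RNA extraction, per the labels' protocols.

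Regions overlapped when they shared 1 base. A gap is the number of bases between edges. Each of 17818 symbols was represented by its most abundant transcript. Rows without a usable symbol (820) took the RefSeq symbol of their transcript (GRCm38.p6, names only). Ratios used a pseudocount of 1 RPKM, which understates changes of low genes. A call is 2-fold or more, not a test. With 1 library per group no p-value was computed. Shares have Wilson 95% intervals. Scripts used Python 3.11.15, numpy 2.4.6, pandas 2.3.3 and scipy 1.17.1, and were checked on simulated regions and genes.

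The regions, gene lists, stretches and motifs were chosen with earlier results of these data known. Genes named are the 12 highest and 8 lowest log2 ratios among measured genes near knockout-only regions alone, the 6 nearest to a region, the 4 with most regions, and members of the lists. Regions named are the 3 widest of each class, the 5 farthest from wild type and the 5 with the highest-scoring TRIM28 peaks. The genes with a start inside a region or up to 1 kb away, and the Hox clusters in full, were named after their values were seen. Alternatives were other overlaps, widths, merging, windows of 10, 50 and 100 kb, pseudocounts of 0.1 and 5 RPKM, filters, centring, a 3-fold threshold, all transcript rows and, added after the data were seen, leaving out chromosomes 6 and 14. H3K27ac, input and Rex1GFP libraries were not used here. Some genes that the naming rule takes in are not reported here.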

Additional observations from a re-analysis of the deposited data

Results flagged for a closer look

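The mitochondrial genome lies outside the nuclear comparison, and 4 knockout-only regions were called there against 0 wild-type regions. Mitochondrial DNA carries no histones. The regions, in mm9 positions of chromosome M, run from 5549 to 6041, from 7277 to 7746, from 12240 to 12902 and from 15544 to 16163, with widths of 493, 470, 663 and 620 bases. They make up 4 of 18884 knockout-only regions and enter no gene result.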

How the results depend on the processing

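No paired analysis was possible because each group has 1 library. The number of knockout-only regions was 18884 and that of wild-type-only regions 19057. The numbers were 2389 and 4316 when regions under 1 kb wide were left out. Under 4 other settings, among them the one without chromosomes 6 and 14 that was added after the data were seen, the knockout-only number was within 1.5 times of 18884. The share farther than 10 kb (65.2% knockout-only, 59.5% wild-type-only) was 55.2% and 56.7% with narrow regions left out, 70.2% and 65.6% with merging, and 60.8% and 59.8% without chromosomes 6 and 14. Thus the order of the sets turned round with narrow regions left out. The median width was 490 bases without chromosomes 6 and 14. The share with a wild-type TRIM28 peak (0.736%, against 1.66% of wild-type-only regions) was 0.53% (1.33%) with 50% of the peak inside, 1.09% (2.34%) within 1 kb, and 0.434% (1.18%) for peaks above the median score.

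The share of genes near knockout-only regions alone that were higher (16.3%, 12.5% over all genes) was 13.5% (12.5%) at 50 kb, 12.2% (12.5%) at 100 kb, 22.9% (17.7%) at a pseudocount of 0.1 RPKM, 5.32% (4.47%) at 5 RPKM, 8.69% (8.46%) with no filter and 7.38% (4.95%) at 3-fold. So at 100 kb it was no longer above the background. Their median log2 ratio (0.15, 0.08 over all) was 0.11 at 100 kb, 0.09 at a pseudocount of 5 RPKM, 0.06 with no filter, 0.06 with 5 RPKM in 1 library, 0.07 after centring and 0.25 for regions 1 kb wide or more. The causes were not tested. Among 83 named genes, 37 of 249 values crossed 2-fold. That 0 of those past 2-fold changed sign was fixed by the settings. A pseudocount cannot change a sign, and the centring shift of 0.08 cannot reverse a gene past 2-fold. Mesp2, at 0.03, was at -0.05 after centring. Depth is unknown, so region counts of the 2 lists may differ with it.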
